A study of Owenia fusiformis with 9 samples.

Results

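The posterior end of adult *Owenia fusiformis* females, deposited as tail, was compared with the wall of the trunk, deposited as body wall, to ask which transcripts separate the terminal region of the worm from its flank. These were 2 of the 9 adult RNA-seq libraries of the series. Transcripts were retained when their normalized value, a read count divided by the size factor of its library, reached 50 in tail or in body wall, which held for 15177 of the 31911 transcripts listed. A transcript was called higher in one library when the ratio of the 2 values, each raised by 10 so that very low values do not dominate, reached 4, that is 2 on the log2 scale. By this rule 1120 transcripts were higher in tail and 691 were higher in body wall.

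All libraries came from adults kept in artificial sea water with mud and algae, and the tissues were dissected fresh with forceps. Tail RNA was pooled from 5 females, as was that of the head. The body wall, gut (the midgut) and ovary libraries are labelled female and, as assigned here, came from 1 worm, whereas blood vessel, head plus chaetae (the head with the anterior-most segments and their bristles), retractor muscle and testis are labelled male and, as assigned here, came from another. Tail and body wall differ in body region, in worm and in whether worms were pooled, and these cannot be told apart. Each tissue has 1 library and no replicate, so no test was made, fold changes are descriptions of these libraries, and all intervals cover counting error only. A transcript that is lower because its cell type is rarer cannot be told apart from one with fewer copies per cell.

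*O. fusiformis* is a tube-dwelling annelid. In annelids the posterior end carries the last part of the gut and the anus, and new segments are added from a growth zone just in front of the terminal piece of the body. The annelid body wall is an epidermis with its gland cells over layers of circular and longitudinal muscle, and it encloses the body cavity, in which the germ cells of many annelids mature. No gene name is given here, because the identifiers in the files matched none of the 27038 RefSeq genes available for the species, and neither dissection could be checked against named markers of muscle, epidermis, hindgut or germ cells. The other tissues of the same worms were used in their place.

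The tail library held about 16438522 reads and the body wall library about 17220174, recovered from the step between low values, in a range of 14608988 to 22177997 over the 9 libraries. The 10 most abundant transcripts took 13.1% of the tail library and 12.6% of the body wall library, and 4 transcripts were among the 10 of both. The retractor muscle and testis stood apart from all others, with 66.5% and 77.4% of their summed values in 10 transcripts, and with summed values of 56451691 and 122592193 against 11769696 in tail and 10250139 in body wall. Levels in these 2 libraries therefore depend on the scaling more than those of the other libraries do.

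Most transcripts were near equal in tail and body wall. The log2 ratio had a median of 0.01 and an SD of 1.38 across transcripts, and 10444 transcripts, or 68.8%, lay within 2-fold. The 5th and 95th percentiles were −1.92 and 2.58, so the tail side was the longer one. The 1120 transcripts higher in tail were 7.38% of those compared and the 691 higher in body wall were 4.55%. The excess on the tail side grew with the size of the ratio. At 2-fold the counts were 2599 in tail (17.1%) and 2134 in body wall (14.1%), at 8-fold they were 542 (3.57%) and 254 (1.67%), and at 16-fold they were 246 (1.62%) and 84 (0.553%). Of the 4-fold calls, 61.8% were higher in tail. This share was 53.6% when both libraries were scaled to the same sum, which moved the median log2 ratio to −0.21, so the direction of the excess held but its size depended on the scaling. Within 0.1 on the log2 scale of the threshold lay 63 transcripts just past it and 79 just short of it on the tail side, and 52 just past and 87 just short on the body wall side.

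**Figure D1:**
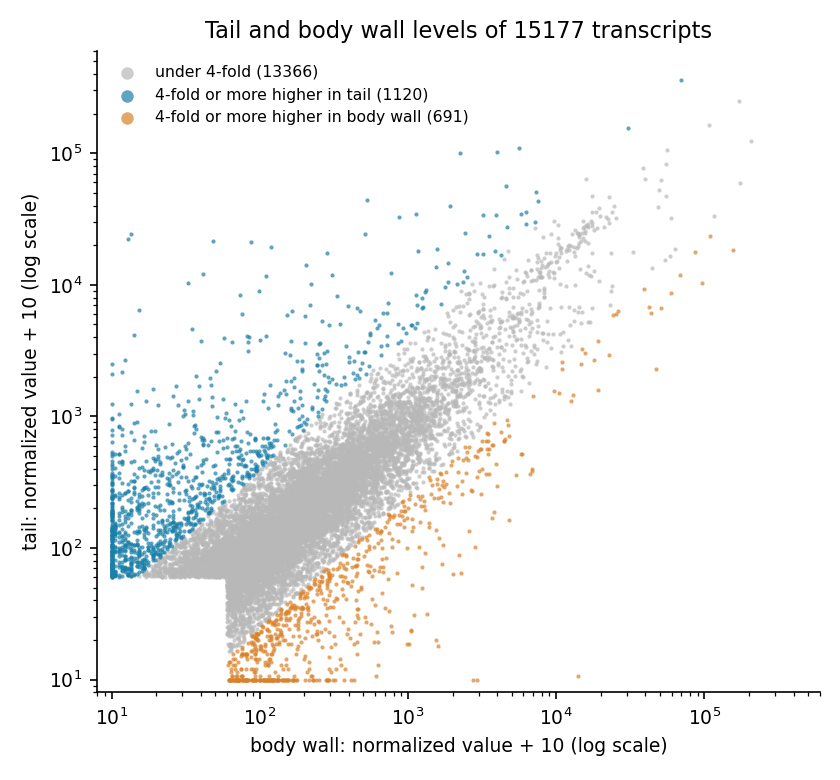
Normalized value + 10 of 15177 transcripts in tail (vertical) against body wall (horizontal), on log axes, with 1 point per transcript and 1 library per axis. The 1120 transcripts higher in tail and the 691 higher in body wall are coloured, and calls extend over the whole range of levels.

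Abundant transcripts separated the 2 libraries more than moderate ones did. Among the 185 transcripts with a mean value of 10000 or more, 31 were higher in tail (16.8%) and 18 were higher in body wall (9.73%), and the SD of the log2 ratio was 2.20. Among the 8656 transcripts between 100 and 1000, the shares were 5.51% and 3.36%, with an SD of 1.28. The spread that counting alone gives was 0.014 in the first of these classes and 0.11 in the second, far under the spread seen. Below a mean value of 100, where counting gives 0.18, the shares were 9.54% and 5.87%. These shares are partly built in, because a transcript low in tail or body wall was retained only by its level in the other library. They are therefore a description and are not set against those of the other classes. The higher value of the called transcripts rested on at least 70 reads in tail and 86 in body wall. With that many reads, the call rule already implies a 95% counting interval of the ratio that excludes a 2-fold difference. The interval did so for all 1120 and all 691 called transcripts, which is therefore no separate check of the calls.

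The tail-higher transcripts were largely low rather than missing in body wall. Their median value was 236 in tail and 12.2 in body wall, with a median log2 ratio of 2.95. In body wall 178 of them were at 0 and 516 were under 10, whereas 294 of the 1120 still reached 50. They made up 21.8% of the tail library and 2.78% of the body wall library, and 41.3% of their sum in tail lay in 10 transcripts. The body-wall-higher transcripts had a median of 228 in body wall and 18.7 in tail, with a median log2 ratio of −2.73. Here 123 were at 0 in tail, 253 were under 10 and 227 of the 691 reached 50. They made up 14.7% of the body wall library and 1.90% of the tail library, with 50.3% of their sum in 10 transcripts.

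The largest ratio was that of OFUSG03730.1, with a value of 24451 in tail and 3.57 in body wall, where it rested on 6 reads. Its next highest value was 466 in gut, and its values in the other 6 libraries ran from 0 in retractor muscle to 17.4 in head. It was therefore abundant in tail, present in gut and at most a trace elsewhere. The values of tail and body wall differed 6854-fold (95% counting interval 3145 to 18657).

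The next largest was OFUSG11090.1, with 22083 in tail and 2.98, or 5 reads, in body wall. It was listed at 0 in gut, ovary, blood vessel and retractor muscle, at 0.60 in head plus chaetae, at 5.53 in testis and at 8.38 in head. Unlike the first, it had no second tissue with more than a trace. The ratio of tail to body wall was 7419 (95% counting interval 3179 to 22853).

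In the other direction, OFUSG18934.1 had a value of 14072 in body wall and of 0.72, a single read, in tail. Its second tissue was the ovary with 5885, and it reached 375 in retractor muscle, 227 in testis and 47.8 in gut. Head plus chaetae stood at 15.6, blood vessel at 10.4 and head at 2.99. Both libraries pooled from 5 females were thus at the low end, and the body wall and ovary libraries, assigned to 1 female, at the high end. Gut, assigned to the same female, lay below retractor muscle and testis, which are labelled male. A link of these levels to the worm was not tested. The ratio of body wall to tail was 19669, with a 95% counting interval of 3527 to 776332 that is wide because tail had 1 read.

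The second was OFUSG25622.2, at 2922 in body wall and at 0 in each of the other 8 libraries. Set against a floor of 3 reads in tail, body wall was at least 1361-fold higher, and the 95% counting interval of the ratio, which allows more reads in tail than that floor, reaches down to 1106. It is 1 of 5 isoforms of its gene, and the other isoforms were not restricted in this way. OFUSG25622.5 had 5289 in body wall and 2023 in tail, and OFUSG25622.4 had 10589 in head plus chaetae, 1274 in body wall and 793 in tail. Summed over its isoforms the gene stood at 11951 in body wall and 2895 in tail, a 4.13-fold difference. Reads shared between isoforms are divided by estimation, so the split among the 5 is less certain than the sum.

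The tail side was then checked against gut and head. A transcript was counted as shared with another library when its value there, raised by 10, was no more than 4-fold below that in tail. By this measure 47.8% of the 1120 tail-higher transcripts were shared with gut, 48.9% with head and 49.6% with head plus chaetae. Over all 15177 transcripts the shares were 82.8%, 90.2% and 91.8%, and the shares of the tail side were thus lower than these and near each other. A lower share is partly built in, because the tail-higher transcripts were chosen to be high in tail. By a fixed level of 50, they were present in gut for 45.4% and in head for 52.9%, against 72.7% and 80.1% of all transcripts compared. The body-wall-higher transcripts were present in gut for 42.1% and in head for 47.2%, not far below the tail side. Measured against their body wall value, 33.1% of them were shared with gut and 37.5% with head. In 334 of the 1120 (29.8%) the gut value was at or above that of tail, against 227 (20.3%) in head and 15.1% in head plus chaetae. Over all transcripts compared these shares were higher, at 46.1%, 43.2% and 43.5%. Gut was the highest of the other 7 libraries for 369 (32.9%), head for 267 (23.8%) and head plus chaetae for 242 (21.6%). Over all transcripts compared these were 18.1%, 12.5% and 17.6%.

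The tail side divided into 4 classes by these tissues. Of the 1120 transcripts, 236 (21.1%) were shared with gut and not head, 249 (22.2%) with head and not gut, 299 (26.7%) with both and 336 (30.0%) with neither. The transcripts shared with gut alone of these 2 had medians of 686 in gut, 248 in tail, 7.73 in body wall and 6.88 in head, so for this class gut was typically above tail. Those shared with head and not gut had medians of 186 in tail, 173 in head and 113 in head plus chaetae, but 10.7 in body wall and 1.99 in gut. The transcripts of the class shared with neither were the most abundant, with a median of 539 in tail, and they held 16.8% of the tail library. Over all 7 other libraries, 231 were shared with exactly 1, which was gut for 106, head plus chaetae for 63 and head for 37. None of these splits was made over all transcripts compared, so they describe the called transcripts only.

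The tail-higher transcript with the highest level in gut was OFUSG25482.3, at 59989 in gut, 6828 in tail and 1244 in body wall. Its values elsewhere ran from 375 in ovary to 3178 in testis. Its log2 ratio of tail to body wall was 2.45, but it is 1 of 4 isoforms of its gene. OFUSG25482.1 went the other way, with 12556 in body wall and 3419 in tail, and OFUSG25482.4 was near equal at 8048 in tail and 8272 in body wall. Summed over the 4, the log2 ratio was −0.26, so the gene as a whole was not higher in tail and the difference lay in which isoform the reads were assigned to. The tail-higher transcript with the highest level in head was OFUSG21353.1, with 64769 in head, 7078 in head plus chaetae, 2720 in gut and 1674 in retractor muscle. Tail and body wall were both far lower, at 308 and 17.9, a log2 ratio of 3.51. In ovary it stood at 34.4, in blood vessel at 12.4 and in testis at 0.

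The body wall side was checked against ovary and retractor muscle. The ovary shared 36.9% of the 691 body-wall-higher transcripts and retractor muscle 42.1%, against 80.5% and 81.6% of all transcripts compared. The same libraries shared 19.3% and 28.5% of the tail-higher transcripts, which are lower than the shares of the body wall side. When all libraries were scaled to the same sum, the share of the body wall side in retractor muscle was 12.0%, since values of that library are then much lower, so the order of ovary and retractor muscle depends on the scaling. At a fixed level of 50, 46.2% were present in ovary and 49.5% in retractor muscle, against 67.8% and 69.0% of all. Of the 691, 108 (15.6%) were shared with ovary and not retractor muscle, 144 (20.8%) with retractor muscle and not ovary, 147 (21.3%) with both and 292 (42.3%) with neither. This split too was not made over all transcripts compared and is a description.

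**Figure D2:**
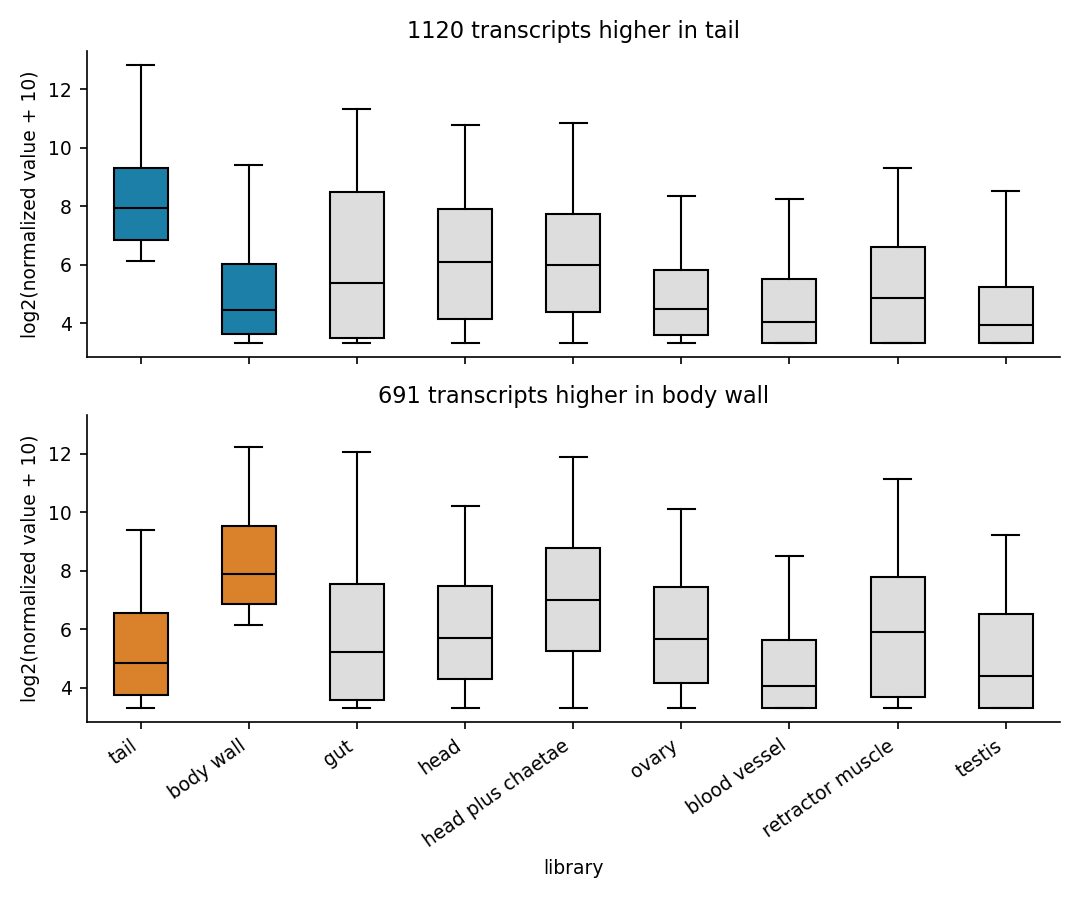
Levels of the 1120 tail-higher transcripts (top) and the 691 body-wall-higher transcripts (bottom) in the 9 libraries, as log2(normalized value + 10). Boxes give the median and quartiles and whiskers the 5th and 95th percentiles across transcripts, and outside tail and body wall the medians of the top panel run from 5.53 in testis to 57.8 in head and those of the bottom panel from 6.62 in blood vessel to 118 in head plus chaetae before the 10 is added.

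Neither of these libraries was the one that shared most with the body wall side. Head plus chaetae, which was also marginally the first for the tail side, shared 66.6% of the body-wall-higher transcripts, against 93.3% of all. It was the highest of the other 7 libraries for 260 of 691 (37.6%), against 17.6% of all. Gut was the highest for 126 (18.2%), retractor muscle for 91 (13.2%), ovary for 78 (11.3%) and head for 68 (9.84%). Over all transcripts compared these were 18.1%, 7.88%, 15.6% and 12.5%. In head plus chaetae 204 of the 691 (29.5%) were at or above their body wall value, compared with 93 (13.5%) in retractor muscle and 79 (11.4%) in ovary. Over all transcripts compared these shares were higher, at 44.7%, 39.0% and 41.6%. The head library, without chaetae, shared 37.5% of the body-wall-higher transcripts, against 89.4% of all. The transcripts shared with retractor muscle and not ovary had medians of 277 in body wall, 279 in head plus chaetae and 204 in retractor muscle, with 30.4 in tail and 46.1 in head, and 77.1% of them were shared with head plus chaetae. Among those shared with both ovary and retractor muscle the share in head plus chaetae was 90.5%, and among those shared with neither it was 50.3%. The head plus chaetae library is labelled male and is assigned to another worm than the body wall.

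**Figure D3:**
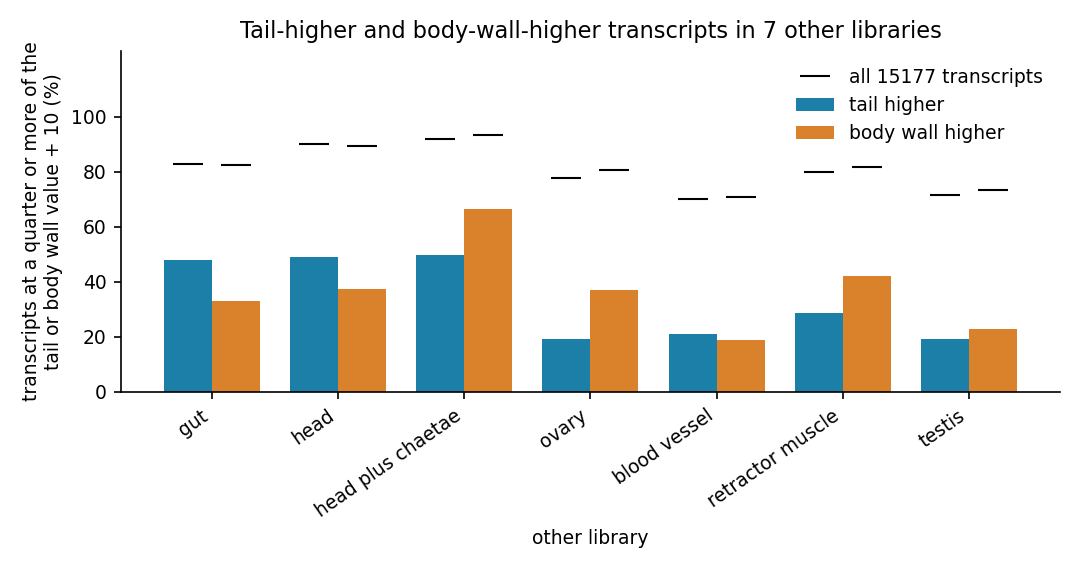
Percentage of the 1120 tail-higher and the 691 body-wall-higher transcripts whose value in each of 7 other libraries was no more than 4-fold below that in tail or body wall, after 10 was added to each value. Black lines give the same percentage for all 15177 transcripts, and the tallest bar is that of body-wall-higher transcripts in head plus chaetae, at 66.6%.

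The body-wall-higher transcript with the highest level in ovary was OFUSG02963.1, which was broadly expressed. It stood at 108363 in body wall, 23537 in tail, 29793 in retractor muscle, 27569 in ovary, 14825 in gut, 11388 in head plus chaetae and 7671 in head, with 1597 in blood vessel and 1105 in testis. Its log2 ratio was −2.20, and it alone was 1.06% of the body wall library. The one with the highest level in retractor muscle was OFUSG18503.1, at 42307 there and at 125 in body wall and 8.61 in tail. Head plus chaetae held 171, testis 149, head 22.8 and ovary 18.4, whereas gut and blood vessel were under 2. Its log2 ratio of tail to body wall was −2.86, and it fell to −1.58, short of 4-fold, when 50 rather than 10 was added to the values.

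Some of the called transcripts stood above all other tissues as well. In 214 transcripts (1.41% of those compared) tail was at least 4-fold above each of the other 8 libraries, and in 86 (0.567%) body wall was. These restricted transcripts were abundant, with a median of 774 in tail against a median of 84.0 in the next highest library, and of 1205 in body wall against 137. This is partly built in, because a transcript at a low level passes only where the other 8 libraries hold almost none of it. The 214 made up 14.6% of the tail library, or most of what the 1120 held, and the 86 made up 7.87% of the body wall library. In 113 of the 214 the next highest library was body wall, and in 38 of the 86 it was tail. After body wall, the library nearest to tail was head plus chaetae for 31, head for 24 and gut for 17, and the library nearest to body wall after tail was gut for 14. All 8 other libraries were under 10 for 35 of the 214 and for 12 of the 86.

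The most abundant restricted transcript of tail was OFUSG06053.1, at 356653, which was 3.03% of the tail library. Body wall followed with 69788, head with 38812 and head plus chaetae with 11309, whereas retractor muscle stood at 646, testis at 205, gut at 157, ovary at 102 and blood vessel at 18.0. It was thus a transcript of the outer dissections, graded among them and low in the internal organs. The most abundant of body wall was OFUSG13287.1, at 156485 and 1.53% of that library. It was followed by tail with 18413, gut with 17491 and ovary with 13198, and reached 3189 in retractor muscle, 2602 in head, 336 in head plus chaetae, 60.8 in testis and 19.0 in blood vessel. Its log2 ratio was −3.09 and that of OFUSG06053.1 was 2.35.

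To see how much each side resembled an organ by criteria that did not involve tail or body wall, lists of transcripts were drawn from the other 7 libraries, taking those at 200 or more in 1 library and at least 10-fold above each of the other 6, after 10 was added to all values. The heads and the pair of retractor muscle and testis were also taken as pairs. The gut list held 653 transcripts, of which 240 were among the 15177. Of the 653, 140 (21.4%) were higher in tail and 25 (3.83%) were higher in body wall, and the median log2 ratio over the whole list was 0.08. The other members were under 50 in both libraries or within 4-fold. Of the 240 compared, the calls were 58.3% and 10.4%, against 7.38% and 4.55% of all transcripts compared, but a gut transcript that is low in one library entered the 240 only by being high in the other, so these shares are given as a description. The list summed to 208002 in tail and 39852 in body wall. OFUSG03730.1, described above, is on this list and supplied 24451 of the sum in tail, although its gut value was only 466. Most of the list was low in both, with 327 of 653 under 10 in tail and 365 in body wall.

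The gut list was carried differently in the 2 libraries. In body wall the median transcript stood at 0.510% of its gut level, the quartiles were 0.184% and 1.10%, and 43.2% of the list lay within 2-fold of that median percentage. In tail the median was 0.743%, but the quartiles were 0.0306% and 7.45% and 13.6% lay within 2-fold. These percentages over all 653 members do not depend on the calls, whereas the following ones describe members picked by their ratio. The 140 transcripts higher in tail stood there at a median of 22.6% of their gut level, with quartiles of 11.1% and 42.4%, and in body wall at 0.694%. The 25 higher in body wall stood there at 0.533% of their gut level, with quartiles of 0.454% and 0.945%, close to the median of the whole list in that library, and at 0.0148% in tail. Their median level in gut was 24679. Not all of the 25 were this low, as 6 stood in body wall at 10% or more of their gut level, up to 31.2%. The 50 transcripts of the list with the highest gut levels, picked without tail or body wall, stood at a median of 0.0259% of them in tail and of 0.378% in body wall, although 7 of the 50 were at 10% or more in tail and 0 in body wall. Gut transcripts of the whole list thus stood in body wall at a low level with a narrower spread of percentages than in tail. The body wall library is assigned to the same worm as the gut library, and the part of this low level in the 25 calls was not tested. Over the whole list, 146 of the 653 transcripts were at 10% or more of their gut level in tail and 27 in body wall.

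**Figure D4:**
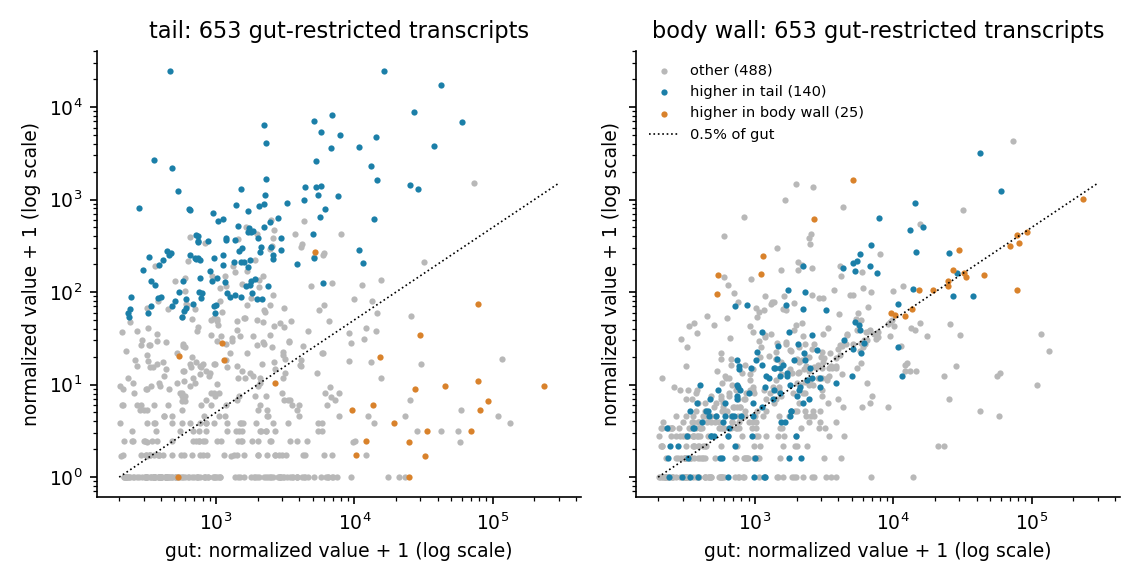
Levels of the 653 gut-restricted transcripts in tail (left) and body wall (right) against gut, as normalized value + 1 on log axes, with a dotted line at 0.5% of the gut level. The 140 transcripts higher in tail lie well above the line in tail, whereas most of the 25 higher in body wall lie near it in body wall, at a median of 0.533%. Both groups were picked by their ratio of tail to body wall, so their positions partly follow from that choice.

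The ovary list behaved otherwise. Of its 167 transcripts, 114 were compared, of which 7 (6.14%) were higher in body wall and 2 (1.75%) in tail. Over all transcripts compared, the calls were 4.55% in body wall and 7.38% in tail. Its level was moderate and even in both libraries, at a median of 6.29% of the ovary level in body wall (quartiles 3.99% and 8.92%) and of 4.05% in tail (quartiles 2.12% and 5.72%), and 68.3% and 63.5% of the list lay within 2-fold of these medians. The sums were 116790 in body wall and 72292 in tail. Ovary transcripts were thus present in both dissections and contributed few calls. OFUSG18934.1, described above, is on this list, and its level in body wall, at 239% of that in ovary, was the highest percentage of the list. Without the gut and ovary lists, 978 transcripts were higher in tail and 659 in body wall.

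Of the remaining lists, that of the head held 170 transcripts, of which 37 were compared. Of these, 16 (43.2%, or 9.41% of the 170) were higher in tail and 0 in body wall. Over all transcripts compared, the calls were 7.38% in tail and 4.55% in body wall. As for gut, a member low in one library was compared only if it was high in the other, so shares of those compared are a description. Drawn at 5-fold, the head list gave 40 and 4. Of 42 transcripts compared from the head plus chaetae list, 19 (45.2%) were higher in tail and 9 (21.4%) in body wall. These counts were 17 and 29 with all libraries scaled to the same sum and 33 and 34 with a list drawn at 5-fold, so this list has no settled direction. A list of 253 transcripts shared by both of these anterior libraries, with 129 compared, gave 28 (21.7%) and 10 (7.75%). Its sum was 689417 in tail and 178868 in body wall. OFUSG06053.1 is on that list and supplied 356653 of the sum in tail. The retractor muscle list was small, with 33 transcripts and 8 compared, of which 1 was higher in tail and 1 in body wall. The blood vessel list, with 123 of 599 compared, gave 5 (4.07%) and 0, and the testis list, with 14 of 57 compared, gave 2 (14.3%) and 0. The list shared by retractor muscle and testis, with 25 of 249 compared, gave 3 (12.0%) and 1 (4.0%).

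**Figure D5:**
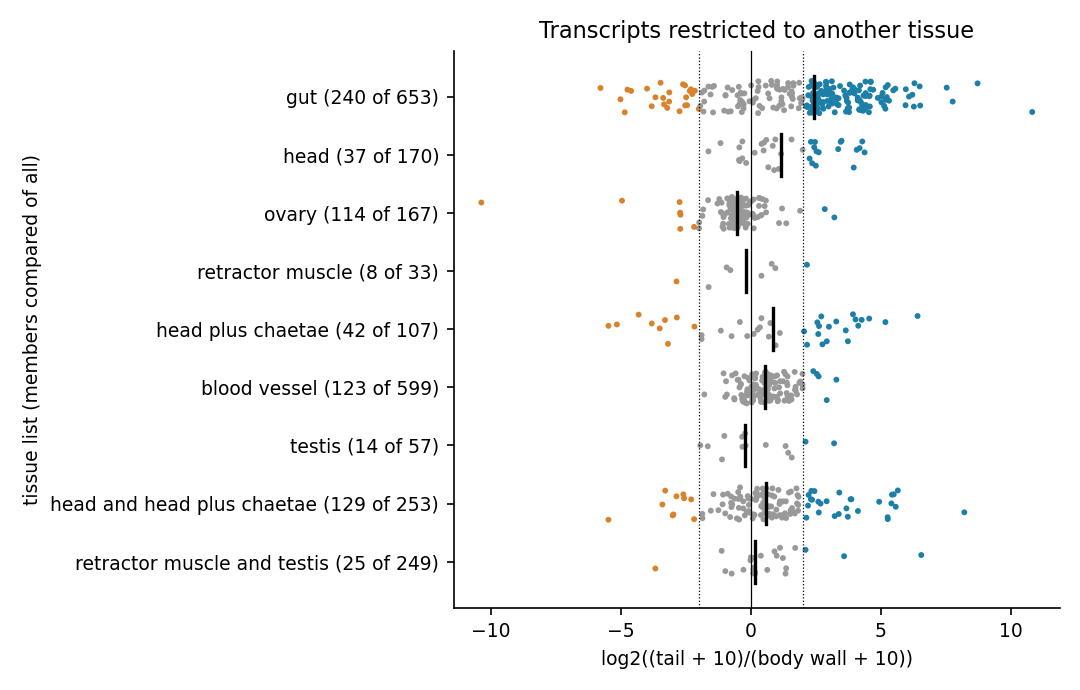
Log2((tail + 10)/(body wall + 10)) of the compared transcripts of each of 9 lists chosen on the other 7 libraries, with 1 point per transcript (spread vertically for display), black bars at the list medians and dotted lines at 4-fold. The gut list has 140 points past the line on the tail side and 25 on the body wall side, and the median of its 240 compared members is 2.44, whereas over all 653 members it is 0.08.

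Genes with several isoforms were frequent among the calls. Of the tail-higher transcripts 31.7%, and of the body-wall-higher transcripts 43.1%, came from genes with more than 1 listed isoform, against 25.2% of all transcripts compared. Among the 1158 genes with 2 or more isoforms compared, 40 (3.45%) had one isoform higher in tail and another higher in body wall, and in 27 of the 40 the sums over isoforms were within 2-fold. With isoforms summed per gene, 896 genes were higher in tail and 460 in body wall.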

How the data were processed

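RNA was extracted from fresh dissected adult tissues, 1 library for each of 9 tissues, and sequenced as paired reads. Per the methods, the authors trimmed reads with trimmomatic, pseudo-aligned them to the filtered gene models with kallisto and normalized the counts with DESeq2 size factors. The submitters' processing notes give kallisto 0.44.0, DESeq2 1.34.0 and R 4.1.2. The deposited values are thus a signal per transcript, a read count over a size factor. The size of 1 read was estimated in each library from the step between low values. Of the low values, 93.1% to 100% per library were whole to within 0.1 read. An added length factor per transcript is possible, and levels are not compared between transcripts per length.

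Transcripts at 50 or more in tail or body wall were compared by log2((tail + 10)/(body wall + 10)), with a call at 4-fold. With 1 library per tissue no test was possible, and neither edgeR nor DESeq2 was run here. Counting intervals (95%) are exact Poisson for reads and Clopper-Pearson for ratios. Named transcripts are the 2 with the largest and the 2 with the smallest ratio and, in each check and among restricted transcripts, the 1 at the highest level. The members and lists were chosen with earlier results of these data known. Percentages of the gut and ovary levels and the counts without those lists were chosen after seeing the data. The ratio rule and the estimate of the size of 1 read were tested on simulated data, and the list rules were not. Alternatives were the pseudocount, level filter, scaling, isoform sums, thinning to equal depth, thresholds and list rules. Python 3.11.15, numpy 2.4.6, pandas 2.3.3, scipy 1.17.1 and matplotlib 3.10.9 were used.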

Additional observations from a re-analysis of the deposited data

How the results depend on the processing

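No paired analysis was possible because each tissue has 1 library, and no library could be left out of a comparison of 2. Of 114 values recomputed for the counts and shares of the comparison and the gut, head, ovary and retractor muscle lists, 81 stayed and 33 did not stay within the limit set for them, which was 1.5 times for counts, the 95% binomial interval of the main value for shares of transcripts, and 10 percentage points for the share of calls higher in tail. Not all of the 81 were separate checks. The counting interval leaves the calls unchanged by the call rule, and no minimum value gave the same 1273 and 792 calls as a minimum of 20. With a pseudocount of 50, 540 transcripts were higher in tail and 293 in body wall, and with isoforms summed 896 genes were higher in tail and 460 in body wall. The other alternatives kept both counts within 1.5 times. The share of calls higher in tail ran from 52.9% to 66.1%, and leaving transcripts above 1% of a library out of the sums moved the median log2 ratio to −0.22. With a level of 20 counted as present, tail-higher transcripts were present in gut for 54.7% and in head for 65.6%, and body-wall-higher transcripts in ovary for 61.9% and in retractor muscle for 60.2%. With a level of 200, these were 31.8%, 27.3%, 22.7% and 25.6%. When a library had to be within 2-fold rather than 4-fold to share a transcript, the shares were 39.3% in gut, 34.9% in head, 23.3% in ovary and 27.1% in retractor muscle. Among transcripts past 8-fold, 47.6% were present in head and 38.9% shared with it. With libraries scaled to the same sum, 22.1% of the body-wall-higher transcripts were present in retractor muscle and 12.0% shared with it. Restricted transcripts numbered 536 in tail and 378 in body wall at 2-fold, and 95 and 24 at 8-fold. Lists drawn at 5-fold gave 40 tail-higher and 4 body-wall-higher transcripts for head, 12 body-wall-higher for ovary, and 5 and 2 for retractor muscle. For the head plus chaetae list, the 19 tail-higher and 9 body-wall-higher transcripts became 33 and 34 at 5-fold and 17 and 29 with equal sums. The ovary list gave 11 body-wall-higher transcripts with equal sums, 12 with a pseudocount of 1, and 4 tail-higher with a list minimum of 50, and the retractor muscle list gave 0 tail-higher with equal sums. At 2-fold, 137 genes had isoforms called both ways. Of 40 recomputed log2 ratios of named transcripts, 38 stayed past 4-fold. OFUSG18503.1 moved to −1.58 with a pseudocount of 50, and OFUSG25482.3 reversed to −0.26 with isoforms summed.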

Other observations

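Transcript identifiers carry a gene number, and called genes often had neighbouring numbers. Of the 1078 genes with a tail-higher transcript, 273 (25.3%) had a neighbour in number that was also tail-higher, against 8.30% of the 13781 genes compared, and the longest run was 8 genes. Of the 658 body-wall-higher genes, 120 (18.2%) had such a neighbour, against 5.48%, with a longest run of 4. Among the 209 genes restricted to tail, 60 (28.7%) had a neighbour restricted to tail, against 1.82%, and among the 86 restricted to body wall 10 (11.6%) did, against 0.798%. Of the 1078 tail-higher genes, 48 (4.45%) had a body-wall-higher neighbour, against 5.48% of all genes compared, so this share was not raised. The sources used here do not state whether the numbers follow position in the genome, and shared reads between near-identical neighbours were not tested.

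Across the series 26 transcripts were higher in tail than in body wall while all 7 other libraries shared them, with medians of 125 in tail, 8.62 in body wall, 257 in head and 180 in blood vessel. By the way they were chosen, these 26 (2.32% of the tail-higher transcripts) were low in body wall alone. In the other direction 17 (2.46% of the body-wall-higher transcripts) were low in tail alone, with medians of 138 in body wall and 10.1 in tail and from 115 to 178 in the other 7 libraries. Neither count was made over all transcripts compared.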
